A study of Homo sapiens with 2 samples.

Results

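A set of 8 genes that carry, store and use folate was followed across the TFAP2E overexpression and empty vector arrays: MTHFD1, MTHFD1L, MTHFD2, SHMT1, SHMT2, FPGS, GGH and SLC19A1. They were chosen by gene symbol, and 9 probe sets carried exactly 1 of these symbols, out of 33297 probe sets and 18417 named genes in all. Each gene had 1 probe set except MTHFD2, which had 2. All 8 genes lay above the filter value of 5.55, the median of all probe sets, on both arrays, with log2 values from 7.31 to 10.65.

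Both arrays held total RNA of SW480, an established human colorectal adenocarcinoma line. The TFAP2E overexpression cells stably carried the TFAP2E coding sequence, for the transcription factor AP-2 epsilon, in the pTarget mammalian expression plasmid. The empty vector control cells carried the plasmid alone, and both were kept under the selection drug Geneticin for weeks before single clones were taken and tested for TFAP2E. The study compared 1 array of each kind, and the labels do not say whether an array holds 1 clone or several, so that a difference between clones and a difference due to TFAP2E cannot be told apart. Values are log2 RMA values per probe set, a difference is always TFAP2E minus empty vector, and with a single array a side there is no replicate, error or test for any value.

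The TFAP2E probe set itself gave 6.81 in the TFAP2E cells against 6.77 in the control cells (0.04), so the introduced gene is not visible in these values and every direction given here depends on the labels. Of 11 colorectal epithelial markers 8 lay above the filter value, and KRT20, CEACAM5 and GPA33 were dim on both arrays. VIL1 was among the 8 only through the TFAP2E array, at 6.22 against 4.94, and CDH1 read 6.38 against 7.08, 1.63-fold lower. The endothelial markers were dim in 4 of 4 cases, the fibroblast markers in 4 of 6 and the leukocyte markers in 3 of 5, with CD68 at 6.60 against 6.02, 1.49-fold higher. The part of these marker differences in the results was not tested. Across the 11548 genes above the filter the differences centred on a median of 0.04 with a standard deviation of 0.219, and the central 95% ran from -0.37 to 0.47.

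Folate is a cofactor that carries single carbon units between metabolites. Serine gives up its carbon to tetrahydrofolate in the reaction of the serine hydroxymethyltransferases, and the methylenetetrahydrofolate dehydrogenases then oxidise that unit towards formate, which feeds purine and thymidylate synthesis. Mitochondria and cytosol each hold a copy of this route: SHMT2, MTHFD2 and MTHFD1L act in mitochondria, where proliferating tumour cells usually make formate, and SHMT1 and MTHFD1 act in the cytosol, where formate is used. SLC19A1, FPGS and GGH control how much folate a cell takes up and keeps, and the same system handles the antifolates and the folinic acid given with fluorouracil in colorectal cancer.

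The promoters of these genes are shown first, because the introduced factor binds DNA and because MTHFD2, MTHFD1L and SHMT2 are known targets of the amino acid stress factor ATF4. A window from 250 bases before to 50 bases after each annotated gene start in RefSeq (GRCh38.p14) was found for 6 of the 8 genes, 14 windows in all, and SHMT2 and GGH had none in the table used. The AP-2 motif searched was GCCNNNGGC, which reads the same on both strands, and the ATF4 composite motif was TGATGNAAN on either strand. The AP-2 letters occurred in 6 of the 14 windows and in 4 of the 6 genes, MTHFD2, MTHFD1L, SHMT1 and FPGS. Of all 35116 windows of the same length 23.2% held them, as did 26.6% of the 27305 genes with a window. Several windows of 1 gene overlap and count the same site again. A pair of genes, MTHFD2 and SHMT1, had a single annotated start and a match before it, and their 250 bases before the start are given 5′ to 3′ with the motif in capitals.
MTHFD2, chr2:74198365-74198614, plus strand: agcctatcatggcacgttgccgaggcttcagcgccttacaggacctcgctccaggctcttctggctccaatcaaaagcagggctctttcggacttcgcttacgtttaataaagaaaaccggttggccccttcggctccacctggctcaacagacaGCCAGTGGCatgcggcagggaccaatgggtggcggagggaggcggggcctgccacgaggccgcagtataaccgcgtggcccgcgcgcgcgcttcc
SHMT1, chr17:18363551-18363800, minus strand: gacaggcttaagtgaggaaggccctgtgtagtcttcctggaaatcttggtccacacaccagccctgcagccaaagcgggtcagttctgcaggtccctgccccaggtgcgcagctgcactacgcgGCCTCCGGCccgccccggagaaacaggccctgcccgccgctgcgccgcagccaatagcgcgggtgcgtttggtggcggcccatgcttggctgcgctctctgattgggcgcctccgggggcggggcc
In MTHFD2 the match ended 86 bases before the gene start, and in SHMT1 117 bases before it. These are the members with the highest and the second lowest difference of the 8. Their matches share the fixed letters of the motif and differ in the letters between. Any link between a match and a difference was not tested.

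The ATF4 letters occurred in 3 of the 14 windows, each a window of MTHFD1L that covers the same site, against 3.61% of all windows and 4.45% of genes. That site stood beside an AP-2 match without overlap. It is given with the only FPGS match as 30 bases each, with both motifs in capitals, because MTHFD1L has 4 windows and FPGS has 3 and each site lies after at least 1 of their annotated starts.
MTHFD1L, chr6:150866341-150866370, plus strand: agccgGCCGCCGGCtcTGATGCAATcgcgc
FPGS, chr9:127802896-127802925, plus strand: cctagagcgctGCCGGGGGCgccgggacta
The windows of MTHFD1 and SLC19A1 held neither motif. A match describes letters in the reference and not binding, which was not measured here.

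The mitochondrial enzymes read higher on the TFAP2E array, as did 59.2% of all genes. Only MTHFD2 among them stood well above the median of all genes. MTHFD2, the mitochondrial dehydrogenase and cyclohydrolase that is high in many tumours and low in most adult tissues, read 10.65 on the TFAP2E array against 10.32 on the control array. It was 1.26-fold higher (log2 difference 0.33), and 7.39% of all genes measured differed by as much or more in that direction. Its second probe set read 10.06 against 9.72, with the same difference of 0.33. Both probe sets thus gave the same direction and size, although they may share probes or pick up related copies, since RefSeq lists 7 pseudogenes of MTHFD2.

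MTHFD1L, the mitochondrial synthetase that releases formate, read 8.28 on the TFAP2E array and 8.20 on the empty vector array. Its difference of 0.08 lay at percentile 56.7 of all genes, close to the middle. SHMT2, which takes the carbon from serine in mitochondria, read 10.54 against 10.50. Its difference of 0.05 lay at percentile 50.5, so that SHMT2 stood at the median gene. Within the mitochondrial arm MTHFD2 therefore differed by 0.25 more than MTHFD1L on the log2 scale. A further 4 probe sets listed MTHFD1L together with 3 other loci, could not be assigned to it, and were left out of every count. They were dimmer, between 5.93 and 6.50, and read higher on the TFAP2E array by 0.31 to 0.35. These 4 gave only 3 distinct pairs of values, because 2 were identical on both arrays, and the rest shared a difference of 0.35.

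The cytosolic enzymes both read lower. SHMT1, the cytosolic counterpart of SHMT2, read 7.31 on the TFAP2E array against 7.72 on the control array. It was 1.33-fold lower (log2 difference -0.41), and 1.82% of genes read as low or lower by difference. MTHFD1, the trifunctional cytosolic enzyme that interconverts formyl, methenyl and methylene folates, read 9.38 against 9.52. Its difference of -0.14 lay at percentile 15.7 and inside the range that held 95% of genes, whereas SHMT1 lay just outside its lower end. RNA of a whole culture does not tell fewer cells with a transcript from less transcript per cell.

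**Figure D1:**
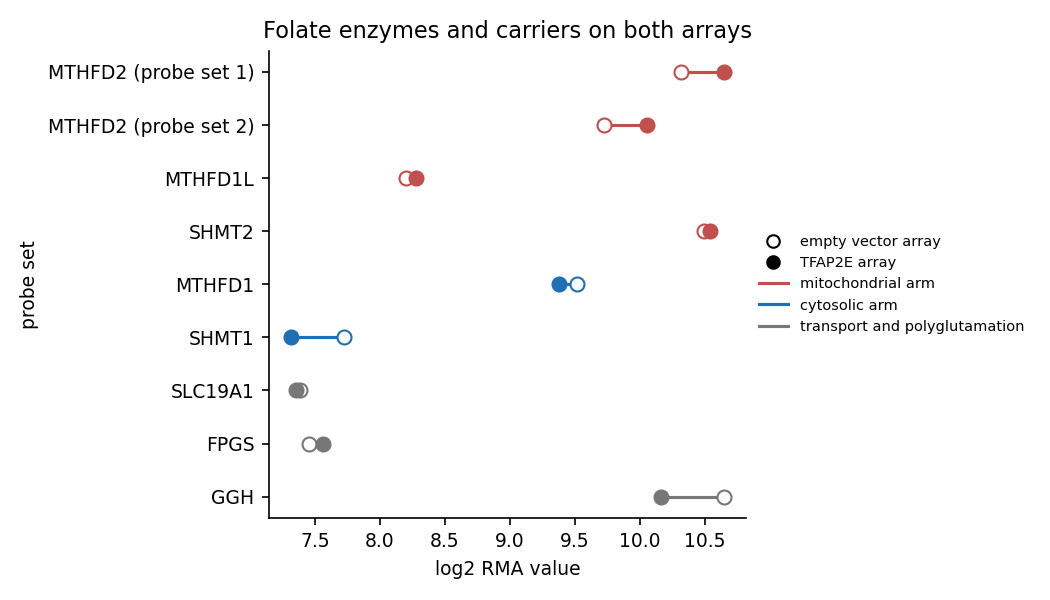
The plot of levels shows the log2 RMA value of each of the 9 probe sets (rows) on the empty vector array (open circles) and the TFAP2E array (filled circles), 1 array each. The widest gaps are those of GGH (10.65 to 10.16) and SHMT1 (7.72 to 7.31), with the TFAP2E array lower, and of both MTHFD2 probe sets, with the TFAP2E array higher. Positions of different probe sets along the axis are not comparable as amounts.

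The arms did not overlap in their differences, on 3 genes against 2 that were chosen with earlier results of these arrays known. The share of gene sets of this size that separate in this way was not computed. The mitochondrial genes lay between 0.05 and 0.33, with a mean of 0.15, and the cytosolic genes between -0.41 and -0.14, with a mean of -0.28. The mitochondrial mean stood 0.43 above the cytosolic mean on the log2 scale, a 1.34-fold shift of the ratio. The gap between the lowest mitochondrial gene, SHMT2, and the highest cytosolic gene, MTHFD1, was 0.19, smaller than 1 standard deviation over all genes. By pairs with the same reaction, SHMT2 differed by 0.46 more than SHMT1, a 1.37-fold shift in their ratio, and MTHFD1L by 0.22 more than MTHFD1. MTHFD2 differed by 0.47 more than MTHFD1. The contrast of the serine pair came from SHMT1, because SHMT2 stood at the median of all genes. Left out in turn, SHMT1 took the arm difference to 0.29 and MTHFD2 to 0.34, the lowest values of the 5. Of 6 other measured cytosolic folate enzymes 4 were higher and 2 lower. Of 6 other measured genes of mitochondrial folate and glycine cleavage 5 were higher and 1 lower. The split of the arms thus describes the member genes and not the compartments.

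Of the 3 genes of uptake and retention, GGH was the only one outside the range that held 95% of genes. GGH, the gamma-glutamyl hydrolase that trims the glutamate tail of stored folates and antifolates so that they can leave the cell, read 10.16 on the TFAP2E array against 10.65 on the control array. At 1.40-fold lower (log2 difference -0.48) it had the lowest difference of the 8 genes, and 137 of the 11548 genes (1.19%) read as low or lower by difference. FPGS, the folylpolyglutamate synthase that adds that tail and thereby holds folate in the cell, read 7.56 against 7.45. Its difference of 0.11 lay at percentile 64.0. The enzyme that adds the tail thus differed by 0.59 more than the enzyme that removes it, a 1.51-fold shift of the ratio of FPGS to GGH. GGH contributed most of this shift, so it largely repeats the value of GGH. The share of gene pairs that differ as much was not computed. SLC19A1, the reduced folate carrier that brings folate and methotrexate into the cell, read 7.35 against 7.39. Its difference of -0.03 lay at percentile 32.9.

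**Figure D2:**
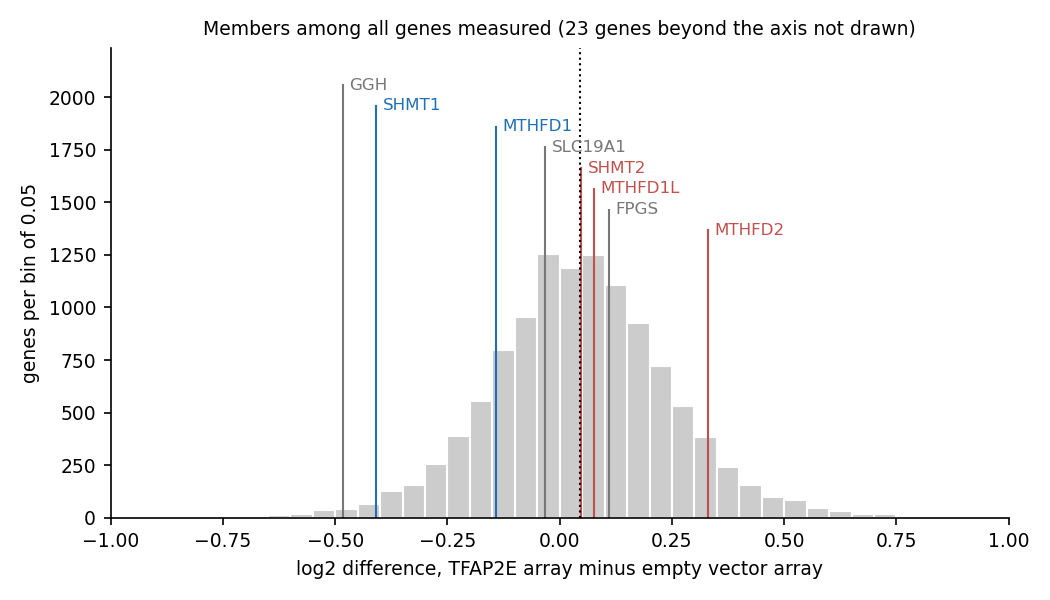
The histogram shows the log2 difference between the arrays for the genes above the filter, in bins of 0.05, with the 8 members as vertical lines (red mitochondrial, blue cytosolic, grey uptake and retention) whose height has no meaning. The dotted line is the median of all genes, 0.04. GGH and SHMT1 lie in the lower tail, MTHFD2 on the upper flank, and SHMT2 at the median, while 23 genes past 2-fold lie beyond the axis.

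Counted by size, 0 of the 8 genes passed 2-fold, where 0.199% of all genes did, and 0 passed 1.5-fold, where 1.5% did. At 1.25-fold, a threshold added after the values were seen, 3 of 8 passed, MTHFD2, SHMT1 and GGH, against 11.7% of all genes. MTHFD2 was the only one of the 8 past 1.25-fold on the higher side, where 7.9% of genes lay, and it no longer passed after quantile normalization (0.30) or loess removal (0.29). SHMT1 and GGH were on the lower side, where 3.8% lay. By sign, 4 of the 8 were higher and 4 lower, against 59.2% and 39.5% of all genes. The median over the 8 was 0.01, against 0.04 over all genes. SHMT1 and GGH were the 2 members outside the range that held 95% of genes, and the other 6 lay inside it. The genes were chosen with results of these arrays known, so that these counts describe the arrays and support nothing further.

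Among the remaining enzymes of folate metabolism, DLD alone passed 1.25-fold. Of 6 measured cytosolic folate enzymes on a list of 10, 4 were higher and 2 lower, with a median of 0.08 and 0 past 1.25-fold. The highest was ATIC, which closes the purine ring with formyl folate, at 0.17 (10.03 against 9.86). The lowest was FTCD, a histidine breakdown enzyme, at -0.15 (6.24 against 6.39). TYMS, the thymidylate synthase that fluorouracil inhibits, stood at 0.01 and was named after its value was seen. So was ALDH1L1, also on the cytosolic list, which fell just short of the filter value of 5.549. It read 5.547 on the TFAP2E array against 5.253 on the control array, a difference of 0.29. With no filter, where it counts, the median of the cytosolic list was 0.15. After quantile normalization 1 gene of that list passed 1.25-fold. Of 6 measured genes of mitochondrial folate and glycine cleavage on a list of 12, 5 were higher and 1 lower, with a median of 0.14 and 1 past 1.25-fold. DLD, the dihydrolipoamide dehydrogenase shared by glycine cleavage and the pyruvate dehydrogenase complex, was the highest at 0.41 (9.87 against 9.46, 1.33-fold), a difference about as large as that of SHMT1 and opposite in sign, and GLDC, the glycine decarboxylase, the lowest at -0.06 and near the filter value. SLC25A32, the mitochondrial folate carrier, was named after its value was seen, at 0.24 (9.46 against 9.22). MTHFD2L and ALDH1L2, mitochondrial relatives, were dim on both arrays. The medians of the 2 lists had no stable order: the mitochondrial list stood above the cytosolic one at 0.14 against 0.08, but below it with no filter (0.14 against 0.15) and with median centring (0.16 against 0.18).

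Among 6 measured genes of folate uptake and export on a list of 10, 2 were higher and 4 lower, with a median of -0.06. They ran from FOLR3, a secreted folate receptor that was dim on the TFAP2E array, at -0.18, to ABCC4, an efflux pump for folates and antifolates, at 0.08. FOLR1 and FOLR2, the membrane folate receptors, were dim on both arrays. SLC46A1, the proton-coupled folate transporter, was named after its value was seen, at -0.16 (6.93 against 7.08). Neither of the carriers that bring folate in, SLC19A1 and SLC46A1, thus passed 1.25-fold.

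Serine synthesis supplies the carbon units that SHMT1 and SHMT2 take up, and its 3 enzymes were all higher on the TFAP2E array. PHGDH, the first enzyme, read 9.94 against 9.76 (0.18), and PSAT1, the aminotransferase, 10.49 against 10.26 (0.23). PSPH, the phosphatase that releases serine, read 9.67 against 9.28 (0.39), and its second probe set differed by 0.42. PSPH was the only one of the 3 past 1.25-fold. In purine synthesis, which uses formyl folate, 7 of 8 genes were higher, against 59.2% of all genes. After quantile normalization or loess removal 6 of 8 were higher, against 54.1% and 52.1% of all genes. As deposited, the median of 0.07 was close to the 0.04 of all genes. IMPDH2, which makes the guanine precursor, was the highest at 0.22, and PPAT, the first enzyme, the lowest at -0.05, with 0 past 1.25-fold.

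The largest difference in the neighbouring pathways was that of CTH, the cystathionine gamma-lyase that makes cysteine at the end of transsulfuration. CTH read 6.92 on the TFAP2E array and 6.05 on the empty vector array, 1.84-fold higher (log2 difference 0.88) and at percentile 99.9 of all genes. The other 3 measured genes of the methionine cycle and transsulfuration were nearer to 0, from MAT2A, an S-adenosylmethionine synthetase, at -0.10 to AHCY, which clears S-adenosylhomocysteine, at 0.15. The list had a median of 0.10, and 4 of its genes, MAT1A, BHMT, BHMT2 and GNMT, were dim.

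MTHFD2, PSAT1, PSPH, CTH and ASNS are known to be induced through ATF4 when amino acids are short or proteins misfold. Of 13 measured genes on a list of 14 made of ATF4 and its targets, 11 were higher and 2 lower, where 59.2% of all genes were higher, and the median was 0.26. In that list 2 passed 1.5-fold, against 1.5% of all genes, and 7 passed 1.25-fold, 6 higher and 1 lower, against 11.7%. DDIT3, a stress transcription factor, read 7.89 against 7.07 and was 1.77-fold higher. ASNS, asparagine synthetase, read 10.16 against 9.48 and was 1.60-fold higher. SLC7A5, a leucine transporter, went the other way, at 10.72 against 11.16 (-0.45). ATF4 itself differed by 0.21 on its brighter probe set and by 0.01 on the other. MTHFD2 at 0.33 lay close to the list's median. SHMT2 at 0.05 and MTHFD1L at 0.08 lay below all but the 2 lowest genes of the list. Whether a stress response differed between the cells was not measured, and any link between this list and the value of MTHFD2 was not tested.

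**Figure D3:**
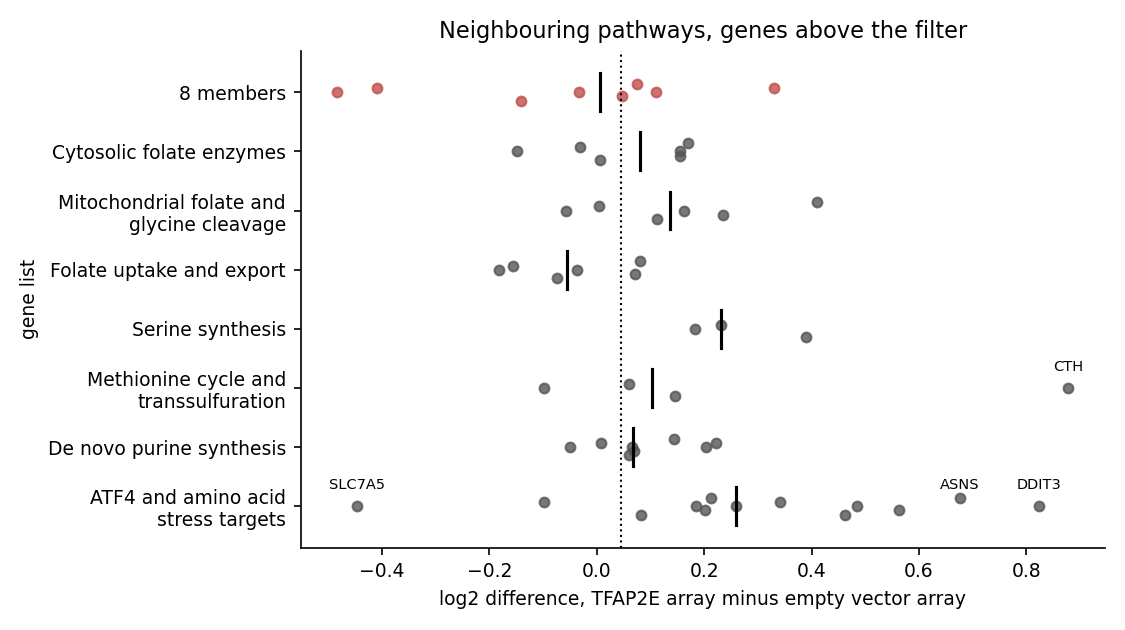
The strip plot shows the log2 difference of the 8 members (red) and of the measured genes of 7 neighbouring lists (grey), 1 point a gene, with each list's median as a bar and the median of all genes, 0.04, as a dotted line. CTH (0.88), DDIT3 (0.82) and ASNS (0.68) are the farthest to the right, SLC7A5 (-0.45) lies with GGH and SHMT1 on the left, and the serine synthesis genes lie to the right of the dotted line.

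Over the 7 lists together 46 of 60 genes on the array were measured, 35 were higher and 11 lower, where 59.2% of all genes were higher. With the loess trend removed the split was 32 to 14, where 52.1% of all genes were higher. As deposited, 10 were past 1.25-fold, 9 higher and 1 lower, against 11.7% of all genes, and 7 of these 10 belong to the ATF4 list. The median of these 46 was 0.14, against 0.01 for the 8 members and 0.04 for all genes. The directions of all 8 members held when the arrays were centred on their medians, quantile normalized or freed of a loess trend on level.

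**Figure D4:**
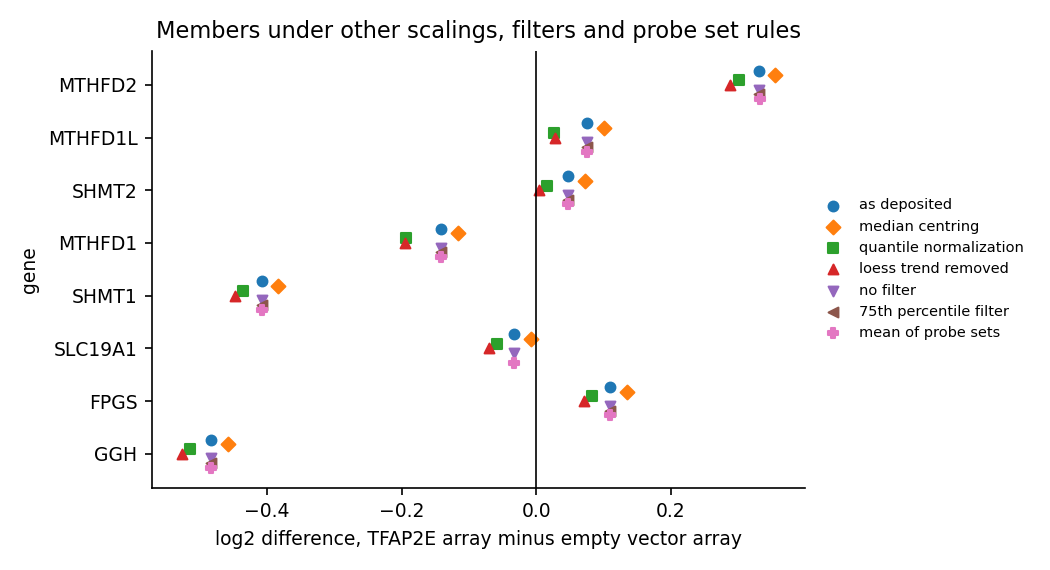
The plot of settings shows each member's log2 difference as deposited and under 6 other settings of scaling, filter and probe set rule, with symbols offset vertically for legibility. GGH stays between -0.53 and -0.46, SHMT1 between -0.45 and -0.38 and MTHFD2 between 0.29 and 0.36, while SHMT2 and SLC19A1 come close to 0 without crossing it. SLC19A1 has no point at the 75th percentile filter, which it did not pass.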

How the data were processed

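Expression was measured on 2 Affymetrix arrays, 1 per group. Per the submitters' processing notes the authors used RMA, which yields the deposited log2 values for each probe set. Its version and the build: not given in the sources used here. RMA sets arrays to a common distribution, so a shift common to all transcripts would not show. Names came from the platform annotation: 19460 had 1 symbol, 1754 had several and were not named, and 12083 had none. Symbols were updated through Entrez identifiers in RefSeq (19429 found). For a gene with several probe sets the brighter one was used, and a gene was measured when its higher value was at least 5.55, the median of all probe sets; genes below it on both arrays are called dim. This kept 11548 genes. That value is not a detection limit.

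With 1 array per group no test was possible, and the number of arrays limits the precision. Calls are counts past 2-fold, 1.5-fold and 1.25-fold. Contrasts between 2 genes, such as FPGS with GGH, were not planned and are given without the share of all gene pairs. Alternatives were 3 scalings (median centring, quantile normalization, removal of a loess trend with span 0.3), 2 filters, averaging of probe sets and a 3-fold threshold, with others added after the data were seen: 1.25-fold, arms with a gene left out, the second MTHFD2 probe set and the lists' medians. The members and the lists were chosen with earlier results of these data known. Named genes are all members, TFAP2E, each list's highest and lowest gene and those past 1.5-fold, every gene of the serine list, and others said to be named after their values were seen. Python 3.11.15, pandas 2.3.3 and statsmodels 0.14.6 were used, and the scripts were tested on simulated data.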

Additional observations from a re-analysis of the deposited data

How the results depend on the processing

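All 8 members kept their direction under the alternatives that gave them a value, and none of the 47 such differences changed sign or moved by more than 0.053. Many of the 47 could not move: a filter leaves a member's value as it is, and averaging of probe sets can change only MTHFD2. Median centring shifts every gene by the same amount. For the other members only quantile normalization and loess removal could change a difference relative to those of other genes. The counts past 2-fold and 1.5-fold stayed at 0 of 8. A 3-fold threshold also gave 0, which was fixed in advance because no member passed 2-fold. The count past 1.25-fold was 2 under quantile normalization (MTHFD2 at 0.30) and 2 with the loess trend removed (0.29), since MTHFD2 ended below the threshold, and it was 3 otherwise. The arm difference of 0.43 lay between 0.29 and 0.56 over 12 alternatives. Median centring and both filters left it unchanged, because they shift all genes alike or dropped no gene of the arms. Both ends of the range came from leaving out a gene, SHMT1 (0.29) or MTHFD1 (0.56). With no SD between replicates, a move was read against the standard deviation of all genes, 0.219. That spread lies between genes and does not measure the error of a single gene. It is larger than the differences of MTHFD1, MTHFD1L, SHMT2, FPGS and SLC19A1, for which a move to 0 would also have counted as no change. The median of all genes, 0.04, ran from 0.01 to 0.07 over the settings. The median of the 8 members turned to -0.02 after quantile normalization and to -0.03 after loess removal. The share of all genes that were higher, 59.2%, was 52.1% without the loess trend and 65.4% with centring. Of the lists, folate uptake and export turned from -0.06 to 0.0030 with the 75th percentile filter, and the others kept the sign of their median. The cytosolic list split 3 to 3 without the loess trend, and its median ran from 0.03 to 0.18, above that of the mitochondrial list with no filter and with centring. Past 1.5-fold there were 4 list genes with centring, where SLC7A11 entered, and 3 with the other scalings, with no filter and with averaged probe sets. No paired analysis was possible because a single array stands for each group.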
